A study of Mus musculus with 12 samples.

Results

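The 7 genes described here, out of 49315 in the deposited count table, encode transcription factors of the SOX family, measured across 4 genotypes of mouse chondrocytes: Sox9, Sox5 and Sox6 (the chondrogenic trio), Sox8, and Sox4, Sox11 and Sox12 (the SoxC genes). They were taken by gene symbol, and the set was selected on the measured Sox11 level, since its rise in Phlpp2 KO and Phlpp1/2 KO over WT was already known from these same counts. Levels and log2 fold changes in those comparisons with WT are therefore given as a description, and the call of Sox11 there is named as the basis of the choice, not as support. All 7 passed the filter on low counts that left 16565 genes for testing.

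RNA was sequenced in bulk from primary epiphyseal chondrocytes of mice aged 5 days, with 3 libraries from each of WT, Phlpp1 KO, Phlpp2 KO and Phlpp1/2 KO. Phlpp1 and Phlpp2 encode phosphatases that act on AKT and other kinases, and the labels do not say in which cells or by which allele the genes were removed. All groups shared the same handling: collagenase II digestion, freezing, thawing and a night in culture with 10% FBS before lysis in Trizol. Every sample was labelled female, with the strain written C57BL6 for WT, Phlpp1 KO and Phlpp2 KO 1 and 2, C57BL7 for Phlpp2 KO 3, and C57BL8, C57BL9 and C57BL10 for the Phlpp1/2 KO libraries. Neither pooling of animals nor a batch is given. In such bulk samples, fewer cells of a type and less RNA per cell cannot be told apart.

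SOX proteins bind DNA through a high mobility group box and bend it. SOX9 is needed for cells to become and to remain chondrocytes, and the long forms of SOX5 and SOX6, which carry no transactivation domain of their own, act beside it on enhancers of cartilage matrix genes such as Col2a1 and Acan. SOX8 is a close relative of SOX9 in the SoxE group. The SoxC proteins SOX4, SOX11 and SOX12 are transcriptional activators known from progenitor cells of the skeleton, nerve and other tissues, where Sox4 and Sox11 overlap in function and SOX12 is the weaker activator.

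In Phlpp2 KO the Sox11 libraries lay above WT, those of Sox4 lay below it and those of Sox12 overlapped it. Of all tested genes, 19.1% had libraries without overlap in this comparison. Sox4 and Sox12 had like log2 fold changes there, −0.20 (SE 0.11) and −0.24 (SE 0.11). The sequences just before the start sites of the 3 SoxC genes are shown side by side. Each line holds the 250 bases before the RefSeq start (build GRCm38.p6, minus strand, 5′ to 3′). They lie at chr12:27342719-27342968 for Sox11, chr13:28953700-28953949 for Sox4 and chr2:152398047-152398296 for Sox12. Capitals mark matches on either strand to the GC box GGGCGG, the CCAAT box CCAAT, the TATA box TATAAA, a SOX motif ACAAAG and a FOXO motif GTAAACA.
Sox11: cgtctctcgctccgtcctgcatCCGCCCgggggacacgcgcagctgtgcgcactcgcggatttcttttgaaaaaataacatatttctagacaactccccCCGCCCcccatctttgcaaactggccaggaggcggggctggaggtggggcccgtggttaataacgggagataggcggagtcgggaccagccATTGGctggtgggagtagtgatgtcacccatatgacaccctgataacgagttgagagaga
Sox4: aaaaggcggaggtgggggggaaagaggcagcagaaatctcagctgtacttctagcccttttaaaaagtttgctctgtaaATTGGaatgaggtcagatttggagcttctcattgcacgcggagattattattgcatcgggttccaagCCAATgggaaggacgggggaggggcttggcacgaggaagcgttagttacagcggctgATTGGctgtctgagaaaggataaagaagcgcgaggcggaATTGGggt
Sox12: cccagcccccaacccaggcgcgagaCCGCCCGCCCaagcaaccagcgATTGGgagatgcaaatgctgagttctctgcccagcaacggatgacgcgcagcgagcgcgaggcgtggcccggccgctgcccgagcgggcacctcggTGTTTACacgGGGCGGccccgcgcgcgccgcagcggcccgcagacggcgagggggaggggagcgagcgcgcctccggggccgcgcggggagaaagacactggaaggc
The Sox11 stretch was 58.0% G or C and held 2 GC boxes and 1 CCAAT box. The Sox4 stretch was 50.8% G or C with 4 CCAAT boxes and no match to the GC box. The Sox12 stretch was 74.4% G or C with 3 GC box matches, 2 of which overlap, 1 CCAAT box and 1 FOXO match. Over all 32817 windows of this length in the RefSeq table, 32.7% held a GC box, 33.8% a CCAAT box, 12.4% a TATA box, 16.5% the SOX motif and 3.16% the FOXO motif. These are matches of letters only. Of the 7 genes, 6 had an entry in that table.

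The 12 libraries held between 21706337 and 33115345 counts. Levels are given as CPM, a gene's counts relative to the library size after TMM scaling, a scale on which a single count amounts to 0.0295 to 0.0453. Phlpp1 went from 39.7 CPM in WT (SD 4.35, n = 3) to 9.16 in Phlpp1 KO and 8.22 in Phlpp1/2 KO. Phlpp2 went from 25.5 CPM in WT (SD 2.85, n = 3) to 17.8 in Phlpp2 KO and 10.9 in Phlpp1/2 KO, so that the label was followed less far by the library set labelled Phlpp2 KO. In 10 libraries Xist lay between 278 and 587 CPM. In Phlpp1/2 KO 1 Xist was at 3.77 CPM, and the Y-linked genes Ddx3y, Eif2s3y, Uty and Kdm5d summed to 109 CPM. Xist was at 13.9 CPM in Phlpp1 KO 1, where the same Y-linked genes had 0 counts. Phlpp1/2 KO 1 thus went against the female label on both counts, and Phlpp1 KO 1 in its Xist level alone. The 6 chondrocyte markers Col2a1, Acan, Col9a1, Matn1, Hapln1 and Cnmd were present in every library and summed to between 25976 and 48110 CPM.

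Sox9 was the most abundant of the 7 genes in every genotype. To compare genes, CPM was divided by the length of the annotated exons in kilobases (GENCODE vM21, mm10). On that scale the WT level was 92.3 CPM per kb for Sox9 (SD 7.06, n = 3), against 7.75 for Sox6 (SD 0.54), 7.67 for Sox12 (SD 0.88) and 7.12 for Sox5 (SD 0.35). Sox8 followed at 3.92 (SD 0.75), Sox4 at 3.74 (SD 0.16) and Sox11 at 2.32 (SD 0.38). In WT the Sox12 libraries, from 7.15 to 8.69 CPM per kb, overlapped those of both Sox6 and Sox5. Sox6, from 7.39 to 8.37, lay just above Sox5, from 6.71 to 7.36. Sox8 and Sox4 overlapped each other. Of the 4795 exonic bases of Sox4, 2616 are shared with Gm26735 on the opposite strand. Whether reads of that stretch were counted for Sox4 is not given, and its place in this order depends on it. Sox11 was last in WT but took the fifth place in Phlpp1/2 KO, at 4.02 CPM per kb (SD 0.26), above Sox4 at 3.38 (SD 0.58) and Sox8 at 2.58 (SD 0.39). With the longest transcript as the length, the WT level of Sox5 became 14.1 and that of Sox6 13.3 CPM per kb, both above Sox12. Sox11 was again the last in WT and the fifth in Phlpp2 KO and Phlpp1/2 KO.

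**Figure D1:**
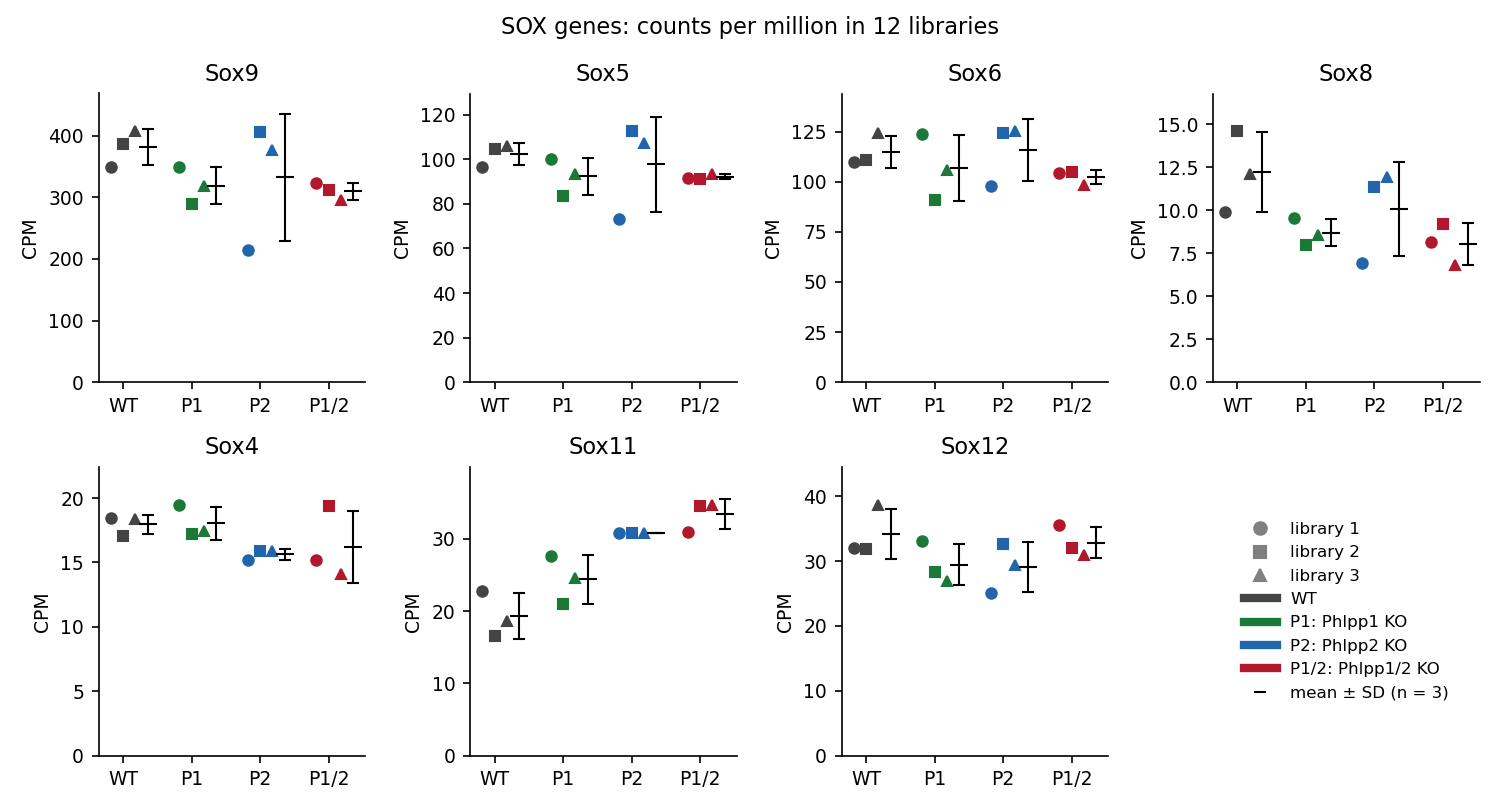
CPM of the 7 SOX genes (y axis, each panel on its own scale from 0) in the 12 libraries by genotype (x axis), with mean ± SD of 3 libraries in black. The Sox11 points of Phlpp2 KO and Phlpp1/2 KO, from 30.7 to 34.7 CPM, lie above those of WT, from 16.5 to 22.8, while Sox9, Sox5 and Sox8 dip in library 1 of Phlpp2 KO.

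Sox9 (ENSMUSG00000000567, chr11:112782224-112787760, plus strand, 3 exons) was measured at 350, 387 and 407 CPM in WT and at 349, 289 and 319 CPM in Phlpp1 KO. It stood at 215, 406 and 377 CPM in Phlpp2 KO and at 323, 311 and 295 CPM in Phlpp1/2 KO. All 3 Phlpp1 KO libraries lay below the WT range, the highest of them only just, and so did all 3 Phlpp1/2 KO libraries. In Phlpp2 KO library 1 lay far below WT and the other 2 overlapped it. The log2 fold change against WT was −0.26 in Phlpp1 KO (SE 0.19), which did not pass the test (adjusted p = 0.467, edgeR's quasi-likelihood test, Benjamini-Hochberg over all tested genes). Against WT it was −0.20 in Phlpp2 KO (SE 0.19) and −0.30 in Phlpp1/2 KO (SE 0.19). Without Phlpp2 KO 1, the value for Phlpp2 KO turned to 0.04 (SE 0.09).

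Sox5 (ENSMUSG00000041540, chr6:143828425-144781977, minus strand) encodes a partner of SOX9 on cartilage enhancers. It was at 96.5, 105 and 106 CPM in WT, 100, 83.4 and 93.4 in Phlpp1 KO, 73.2, 113 and 107 in Phlpp2 KO, and 91.8, 91.3 and 93.5 in Phlpp1/2 KO. The 3 Phlpp1/2 KO libraries lay close together and below all WT libraries, and the other knockouts overlapped WT. Its log2 fold changes against WT were −0.15 in Phlpp1 KO (SE 0.13, adjusted p = 0.558, edgeR), −0.07 in Phlpp2 KO (SE 0.13) and −0.15 in Phlpp1/2 KO (SE 0.13). Without Phlpp2 KO 1, the value in Phlpp2 KO was 0.10 (SE 0.07). The antisense gene Sox5os1 shares 1330 exonic bases with Sox5 and had 3 counts in all 12 libraries together.

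Sox6 (ENSMUSG00000051910, chr7:115470872-116038796, minus strand), the other partner of SOX9, was at 110, 111 and 124 CPM in WT and 124, 90.8 and 106 CPM in Phlpp1 KO. It was at 97.9, 124 and 125 CPM in Phlpp2 KO and 104, 105 and 98.2 CPM in Phlpp1/2 KO. As for Sox5, only the Phlpp1/2 KO libraries all lay below WT. The log2 fold changes were −0.11 in Phlpp1 KO (SE 0.11, adjusted p = 0.646, edgeR), 0.01 in Phlpp2 KO (SE 0.11) and −0.17 in Phlpp1/2 KO (SE 0.11). The first of these turned to 0.02 without Phlpp1 KO 2. The value for Phlpp2 KO ranged from −0.04 (without Phlpp2 KO 3) to 0.12 (without Phlpp2 KO 1) with each library left out, and was also below 0 without Phlpp2 KO 2, WT 1 or WT 2.

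Sox8 (ENSMUSG00000024176, chr17:25565892-25570686, minus strand), the SoxE relative of Sox9, was at 9.91, 14.6 and 12.1 CPM in WT and 9.52, 7.98 and 8.58 CPM in Phlpp1 KO. It was at 6.91, 11.4 and 11.9 CPM in Phlpp2 KO and 8.15, 9.21 and 6.79 CPM in Phlpp1/2 KO. The libraries of Phlpp1 KO and of Phlpp1/2 KO all lay below WT, and those of Phlpp2 KO overlapped it. The log2 fold change was −0.49 in Phlpp1 KO (SE 0.20), which did not pass the test over all genes (adjusted p = 0.189, edgeR). Against WT it was −0.28 in Phlpp2 KO (SE 0.20) and −0.60 in Phlpp1/2 KO (SE 0.20). WT 2, the library with the highest Sox8 level, also had the highest sum over 13 skeletal muscle markers, 130.4 CPM against 10.2 to 60.01 in the other 11 libraries. The next highest sum, 60.01 CPM in Phlpp1 KO 3, went with Sox8 at 8.58 CPM. The lowest, 10.2 CPM in Phlpp2 KO 3, went with Sox8 at 11.9 CPM. Sox8 is also known from muscle precursor cells, and the part of muscle RNA in its level was not tested. The marker sum was 26.1 to 130.4 CPM in WT, 13.8 to 60.01 in Phlpp1 KO, 10.2 to 20.1 in Phlpp2 KO and 19.4 to 33.2 in Phlpp1/2 KO, and in WT 2 none of the 13 was at 0 counts. Of the 10 muscle markers tested, edgeR and limma-voom called 0 against WT in any knockout. In edgeR 0, 6 and 2 had an unadjusted p under 0.05 (20.4%, 13.8% and 11.1% of all tested genes). DESeq2 called 0, 3 and 0 of the 10, beside 990, 317 and 168 of all 16565 tested genes. Without Phlpp2 KO 1 the log2 fold change of Sox8 in Phlpp2 KO was −0.08 (SE 0.16). Without WT 2 the log2 fold changes of Sox8 were −0.34 in Phlpp1 KO (SE 0.21), −0.12 in Phlpp2 KO (SE 0.21) and −0.45 in Phlpp1/2 KO (SE 0.21). Sox8 shares 329 exonic bases with the antisense gene 2810468N07Rik, which stood at 2.76 CPM in WT, and because no strand setting is given, reads from that stretch cannot be assigned to one of them.

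Sox11 (ENSMUSG00000063632, chr12:27334264-27342574, minus strand, a single exon of 8311 bases) was the SoxC gene on whose level the set was selected. It was at 22.8, 16.5 and 18.6 CPM in WT and at 27.6, 20.9 and 24.6 CPM in Phlpp1 KO. It was at 30.8, 30.7 and 30.8 CPM in Phlpp2 KO and at 31.0, 34.5 and 34.7 CPM in Phlpp1/2 KO. The Phlpp1 KO libraries overlapped WT at the level of WT 1, and the libraries of Phlpp2 KO and Phlpp1/2 KO all lay above WT and above Phlpp1 KO. The log2 fold change against WT was 0.68 in Phlpp2 KO (SE 0.12, 1.60-fold) and 0.79 in Phlpp1/2 KO (SE 0.12, 1.73-fold). Sox11 was the 1 member of 7 past an adjusted p of 0.05 in each of these comparisons, in which 0.121% and 0.235% of all tested genes were called; since the gene was chosen for this, nothing is read from those counts. In Phlpp1 KO the log2 fold change was 0.34 (SE 0.12), which did not pass the test (adjusted p = 0.136, edgeR). That test shares its WT libraries with the comparisons on which the set was selected, so it is not independent of the choice. Over refits that each left out 1 of the 12 libraries, the log2 fold change ranged from 0.59 to 0.83 in Phlpp2 KO and from 0.70 to 0.94 in Phlpp1/2 KO. The adjusted p rose above 0.05 in 8 of 12 such refits for Phlpp2 KO and in 3 of 12 for Phlpp1/2 KO.

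No annotated gene overlaps Sox11, and its nearest protein-coding neighbours are far away. Cmpk2, a nucleotide kinase gene 854427 bases to one side, was at 0.603 CPM in WT and 0.357 CPM in Phlpp1/2 KO (log2 fold change −0.75, adjusted p = 0.451, edgeR). Dcdc2c, 1095221 bases to the other side, had 6 counts in all 12 libraries together and was not tested.

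Sox4 (ENSMUSG00000076431, chr13:28948919-28953713, minus strand, single exon), the SoxC gene that overlaps most with Sox11 in function, was at 18.4, 17.1 and 18.4 CPM in WT and 19.5, 17.2 and 17.4 CPM in Phlpp1 KO. It was at 15.2, 15.9 and 15.9 CPM in Phlpp2 KO and 15.2, 19.4 and 14.1 CPM in Phlpp1/2 KO. The Phlpp2 KO libraries lay below all WT and all Phlpp1 KO libraries, the opposite side from Sox11, while Phlpp1/2 KO 2 had almost the highest level of all. The log2 fold changes against WT were 0.01 in Phlpp1 KO (SE 0.11, adjusted p = 0.976, edgeR), −0.20 in Phlpp2 KO (SE 0.11) and −0.15 in Phlpp1/2 KO (SE 0.11). The last was −0.29 without Phlpp1/2 KO 2 and −0.04 without Phlpp1/2 KO 3. The sign of the first was not stable: with library totals alone as the scaling, or without both low-Xist libraries, it fell below 0. A lincRNA annotated on the opposite strand, Gm26735, shares 2616 bases with Sox4 and had 0 counts in all libraries; with no strand setting given, reads of that stretch cannot be told apart.

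Sox12 (ENSMUSG00000051817, chr2:152393611-152398063, minus strand) was at 32.0, 31.8 and 38.7 CPM in WT, 33.1, 28.3 and 27.0 in Phlpp1 KO, 25.0, 32.7 and 29.4 in Phlpp2 KO, and 35.5, 31.9 and 31.0 in Phlpp1/2 KO. Each knockout overlapped WT. The log2 fold changes were −0.21 in Phlpp1 KO (SE 0.11, adjusted p = 0.306, edgeR), −0.24 in Phlpp2 KO (SE 0.11) and −0.06 in Phlpp1/2 KO (SE 0.11). The last became 0.04 without WT 3.

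**Figure D2:**
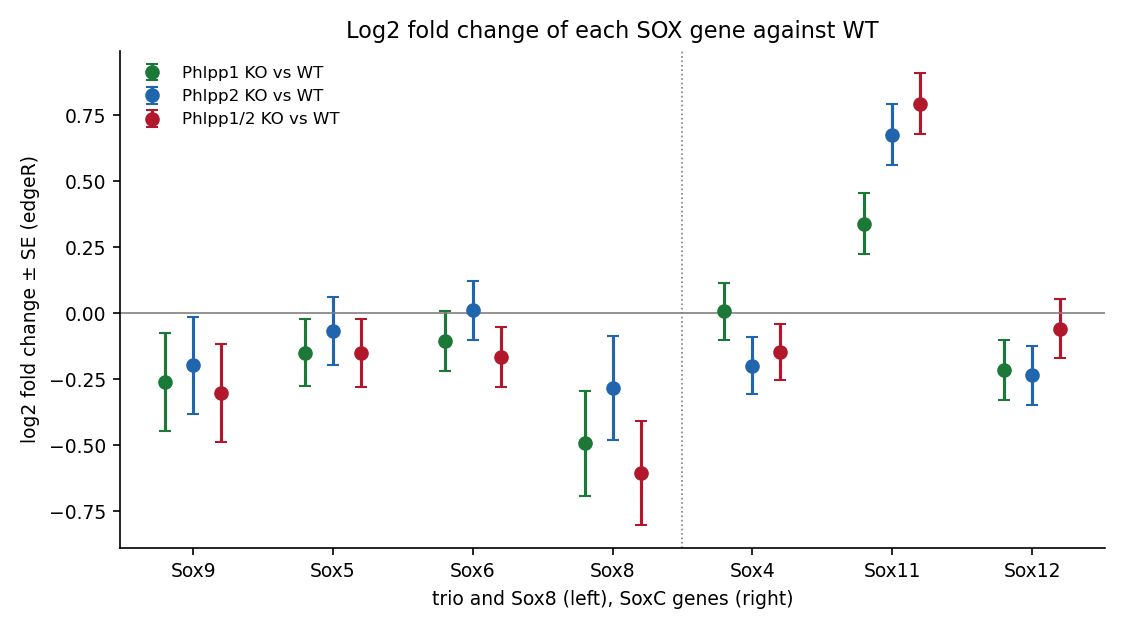
Log2 fold change against WT (y axis, points) with its standard error (bars) for the 7 genes (x axis) in the 3 knockouts, from the edgeR model of all 12 libraries. Sox11 lies highest in each knockout, at 0.34, 0.68 and 0.79, and Sox8 lies lowest, at −0.49, −0.28 and −0.60. The 3 knockouts share the same WT libraries.

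In Phlpp1 KO against WT, 0 of the 7 genes were called by edgeR, beside 0.537% of all tested genes; DESeq2 and limma-voom also called 0. At an unadjusted p under 0.05 there were 2 of 7, Sox11 and Sox8, beside 20.4% of all tested genes. The WT libraries here are those against which the rise of Sox11 was noticed. Its test is thus not independent of the choice, and nothing is read from this count. Sox9 and Sox8 (2 of 7) had Phlpp1 KO libraries that did not overlap WT, and 28.2% of all tested genes did so. In Phlpp2 KO the 2 genes without overlap with WT were Sox11, higher, and Sox4, lower, and in Phlpp1/2 KO they were 5 of 7, with Sox11 higher and Sox9, Sox5, Sox6 and Sox8 lower. The shares of all tested genes were 19.1% and 18.9%. Sox11 is in both counts because the set was selected on it. Sox9, Sox5, Sox6 and Sox8 varied together, with Pearson r of log2 CPM from 0.734 to 0.968 between pairs over the 12 libraries. They also share the same WT libraries, so they are not separate observations, and no excess over those shares is read from the counts. The median log2 fold change of the 7 genes was −0.15, −0.20 and −0.15 in Phlpp1 KO, Phlpp2 KO and Phlpp1/2 KO, beside −0.0126, −0.0166 and −0.00142 over all tested genes.

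The knockouts were then compared with each other. These comparisons share libraries with those in which Sox11 was noticed, so they are not independent of the choice. Sox11 was 0.34 higher on the log2 scale in Phlpp2 KO than in Phlpp1 KO (SE 0.11, adjusted p = 0.314, edgeR) and 0.45 higher in Phlpp1/2 KO than in Phlpp1 KO (SE 0.11, adjusted p = 0.626, edgeR). The libraries did not overlap in either comparison, as was so for 14.1% and 13.2% of all tested genes, and neither difference passed the test. Between Phlpp1/2 KO and Phlpp2 KO the Sox11 difference was 0.12 (SE 0.11, adjusted p = 0.768, edgeR), with the lowest Phlpp1/2 KO library just above the highest Phlpp2 KO library, and 12.4% of all tested genes had libraries without overlap. None of the 7 was called in these comparisons (0 of 7 by edgeR, DESeq2 and limma-voom alike). Over all tested genes 0.151%, 0.0121% and 0.0724% were called. At an unadjusted p under 0.05 there were 1, 1 and 0 members of 7, beside 10.4%, 7.9% and 8.84% of all tested genes. When genes of low count were not filtered out, Sox11 was called in Phlpp1/2 KO against Phlpp1 KO, beside 14 of 32894 genes in that fit. Since the set was selected on Sox11, nothing is read from that call.

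The interaction term asks whether the log2 change of Phlpp1/2 KO differs from the sum of those of Phlpp1 KO and Phlpp2 KO. For Sox11 it was −0.22 (SE 0.16, adjusted p = 0.575, edgeR), which did not pass the test. It is built from the same WT, Phlpp2 KO and Phlpp1/2 KO libraries on which the set was selected, and nothing is read from it. The term farthest from 0 among the members was that of Sox12, 0.39 (SE 0.16, adjusted p = 0.265, edgeR), whose level was lower in both single knockouts than in Phlpp1/2 KO. None of the 7 was called by edgeR, DESeq2 or limma-voom, beside 0.0483% of all tested genes. At an unadjusted p under 0.05 there was 1 member of 7, beside 14.5% of all tested genes.

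Sox11's share of the counts of Sox4, Sox11 and Sox12 together was 31.1%, 25.3% and 24.6% in WT and 34.5%, 31.5% and 35.7% in Phlpp1 KO. The share was 43.4%, 38.8% and 40.5% in Phlpp2 KO and 37.9%, 40.2% and 43.5% in Phlpp1/2 KO. On this scale, which needs no library scaling, all 9 knockout libraries lay above all 3 WT libraries, although the lowest Phlpp1 KO library (31.5%) was close to the highest WT library (31.1%). The SoxC sum itself ran from 65.4 to 75.7 CPM in WT, 66.4 to 80.2 in Phlpp1 KO, 71.0 to 79.3 in Phlpp2 KO and 79.8 to 85.8 in Phlpp1/2 KO, so that it overlapped WT in both single knockouts.

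Against the trio, Sox11 was counted 6.51, 4.27 and 4.57 times per 100 Sox9 counts in WT and 7.92, 7.24 and 7.72 times in Phlpp1 KO. It was counted 14.3, 7.57 and 8.17 times in Phlpp2 KO and 9.59, 11.1 and 11.8 times in Phlpp1/2 KO. All knockout libraries were above WT, and the value of Phlpp2 KO 1 stood far from its 2 companions with Sox9 at 215 CPM and Sox11 at 30.8 CPM there. The mean log2 CPM of the trio exceeded that of the SoxC genes by 2.70 to 2.99 in WT, 2.58 to 2.70 in Phlpp1 KO, 2.35 to 2.83 in Phlpp2 KO and 2.37 to 2.51 in Phlpp1/2 KO. Phlpp2 KO overlapped WT, and Phlpp1/2 KO lay below it. Phlpp1 KO also lay below WT, with its highest library (2.696) just under the lowest WT library (2.703). These ratios rest on the Sox11 values used in the choice and carry no test.

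**Figure D3:**
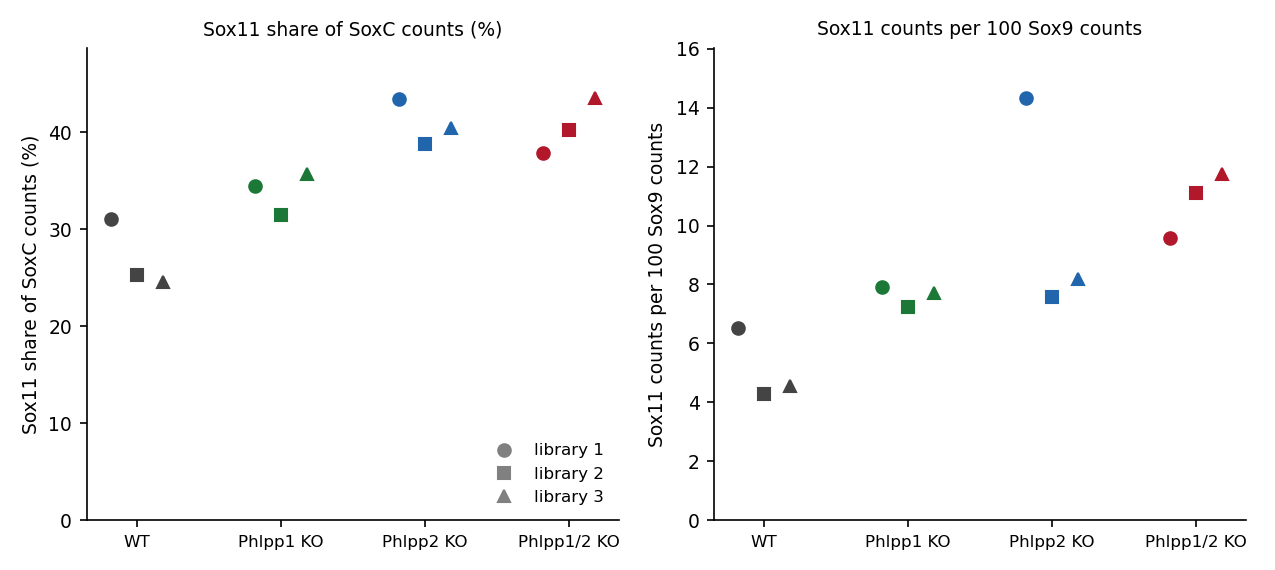
Left, the share of Sox11 in the summed counts of Sox4, Sox11 and Sox12 (percent, y axis) and right, Sox11 counts per 100 Sox9 counts (y axis), for each of the 12 libraries by genotype (x axis). WT lies lowest in both panels, and Phlpp2 KO 1, at 14.3 per 100, is the highest point on the right.

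Within Phlpp2 KO, Sox9, Sox5, Sox6 and Sox8 were all low in library 1 and high in libraries 2 and 3, whereas Sox11 hardly varied. The SD of Sox11 was 0.04 CPM there, against 3.17 in WT, 3.36 in Phlpp1 KO and 2.12 in Phlpp1/2 KO. It rests on 3 libraries with 852, 929 and 803 counts, and nothing is read from how close they lie. In Phlpp2 KO 1, log2 CPM was below the mean of its genotype by −0.57 for Sox9, −0.39 for Sox5, −0.23 for Sox6 and −0.50 for Sox8, and by −0.21 for Sox12, while Sox11 was at 0.00 and Sox4 at −0.04. That library also had the highest sum of 10 perichondrium, fibroblast and tendon markers, 2257 CPM against 1398 to 2035 in the other 11, with none of the 10 at 0 counts. The next highest sum, 2035 CPM, was in WT 3, which had the highest Sox9 level, 407 CPM. The lowest sum, 1398 CPM, was in Phlpp1/2 KO 3, with Sox9 at 295 CPM. The chondrocyte marker sum of Phlpp2 KO 1, 33111 CPM, was close to that of Phlpp2 KO 2, 33187 CPM. The part of other cell types in the low trio values was not tested.

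Across the 12 libraries, the Pearson correlation of log2 CPM between Sox9 and Sox5 was r = 0.968 (Spearman's rho = 0.909). It was 0.979 after genotype means were subtracted, and 0.942 without Phlpp2 KO 1 and WT 3. Sox9 and Sox8 had r = 0.851 (rho = 0.916, n = 12), and Sox9 and Sox6 had r = 0.787 (rho = 0.902, n = 12). Sox9 and Sox12 had r = 0.703 (rho = 0.643, n = 12), which became 0.288 without Phlpp2 KO 1 and WT 3. Sox9 and Sox11 had r = −0.380 (rho = −0.490, n = 12), and 0.01 after genotype means were subtracted. The points share their libraries, their scaling and any mixture of cells, and the values are given as a description.

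Ranked by r among 10132 genes with a mean of at least 5 CPM, Sox5 was the second gene most like Sox9 and Sox9 was the first for Sox5. Sox8 ranked 132 and Sox6 304 for Sox9, whereas Sox11 ranked 7866. The others at the top for Sox9 were Pde4dip (r = 0.970), which encodes a protein that anchors a phosphodiesterase at the centrosome and Golgi, Papss1 (r = 0.956), which makes the sulfate donor used for proteoglycans, Igsf3 (r = 0.955) and Epb41l4b (r = 0.951). After Sox9, those most like Sox5 were Gfpt2 (r = 0.951), an enzyme of hexosamine synthesis, Net1 (r = 0.947), Scin (r = 0.943) and Mab21l2 (r = 0.942).

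For Sox11 the closest were Mcph1 (r = 0.851), which acts in chromosome condensation, Suv39h2 (r = 0.825), a histone H3 methyltransferase, Nup107 (r = 0.823), a nuclear pore subunit, Kpna2 (r = 0.812), a nuclear import receptor, and Hyls1 (r = 0.809), a centriole protein. After genotype means were subtracted these fell to 0.29, 0.64, −0.03, 0.28 and 0.67. For Sox4 the closest were Cadm4 (r = 0.918), Ghitm (r = 0.898), Patj (r = 0.878), Rps6ka2 (r = 0.874) and Dnaja3 (r = 0.858), which kept values of 0.80 to 0.91 within genotypes. No gene was among the 5 closest of both Sox11 and Sox4.

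**Figure D4:**
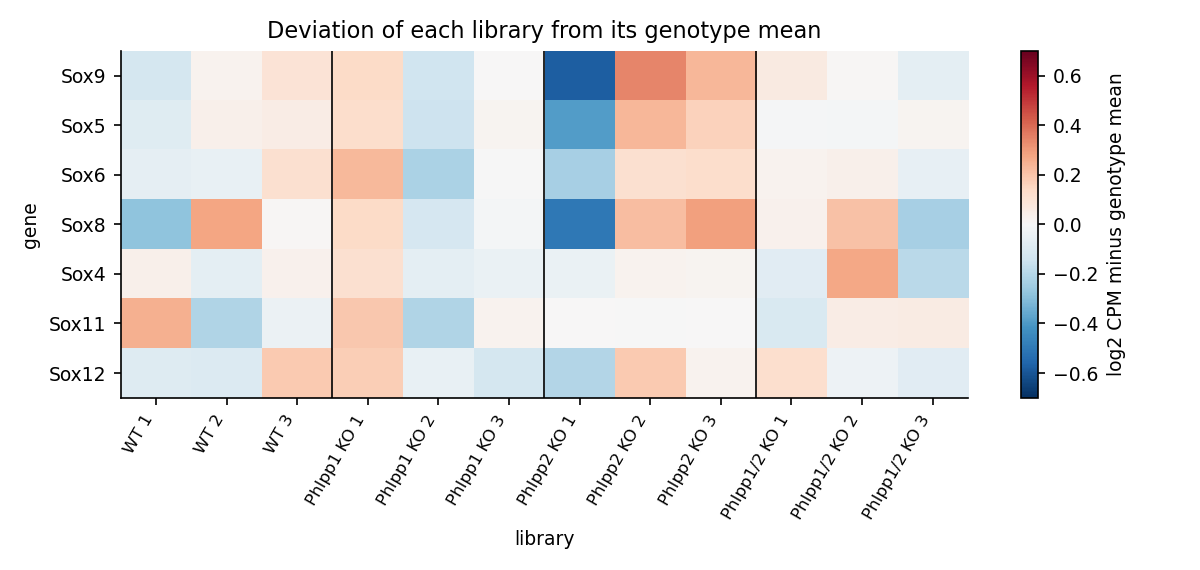
Log2 CPM of each of the 12 libraries (columns) minus the mean of its genotype, for the 7 genes (rows), with red above and blue below that mean. The column of Phlpp2 KO 1 is blue for Sox9 (−0.57), Sox5, Sox6, Sox8 and Sox12 and pale for Sox4 and Sox11.

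Other SOX genes were scarce. Of 13 further family members, 6 passed the filter, led by Sox13, a SoxD relative of Sox5 and Sox6, at 5.12 CPM in WT. Sox7 and Sox18, SoxF genes of endothelium, were at 0.879 and 0.728 CPM. None of the 6 was called in any of the 7 contrasts by edgeR, DESeq2 or limma-voom, and 0 had an unadjusted p under 0.05 against WT in any knockout. Sry, Sox1 and Sox14 had 0 counts in all libraries.

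The cartilage genes that the trio is known to activate did not pass the test. Of 25 such genes, 0 were called in Phlpp1 KO, Phlpp2 KO or Phlpp1/2 KO against WT by edgeR, DESeq2 or limma-voom, and 0, 1 and 0 had an unadjusted p under 0.05, beside 20.4%, 13.8% and 11.1% of all tested genes. Positive log2 fold changes were found for 14, 4 and 5 of 25, beside 47.7%, 46.1% and 49.6% of all tested genes. The medians were 0.08, −0.14 and −0.18, beside −0.0126, −0.0166 and −0.00142. The most abundant were Col2a1, the main collagen of cartilage, Col11a1, a collagen of the same fibrils, and Acan, the core protein of aggrecan. Col2a1 was at 32927 CPM in WT and 27498 CPM in Phlpp1/2 KO (log2 fold change −0.26, SE 0.19). Col11a1 went from 4498 to 4004 CPM (−0.17, SE 0.15) and Acan from 4102 to 3647 CPM (−0.17, SE 0.13). In the interaction edgeR called 0 of the 25 and DESeq2 called 2, Hapln1 and Epyc, beside 650 of all 16565 tested genes with DESeq2.

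Genes reported downstream of SoxC factors lay on both sides of WT. Of 10 such genes, 0 were called against WT in any knockout by the 3 tools, and 1, 0 and 1 had an unadjusted p under 0.05 in Phlpp1 KO, Phlpp2 KO and Phlpp1/2 KO, beside 20.4%, 13.8% and 11.1% of all tested genes. The medians of their log2 fold changes were −0.07, 0.04 and −0.08. Stmn1, which encodes the microtubule regulator stathmin, was at 69.0 CPM in WT and 93.8 CPM in Phlpp1/2 KO (log2 fold change 0.44, SE 0.18, adjusted p = 0.408, edgeR). Tead2, a Hippo pathway transcription factor under SoxC control in other tissues, was at 12.7 CPM in WT and 14.9 CPM in Phlpp1/2 KO (0.24, SE 0.11, adjusted p = 0.464, edgeR). Tubb3, a neuronal tubulin, was at 2.44 and 2.05 CPM (−0.25, SE 0.18). Gdf5 was at 31.0 CPM in WT and 25.6 CPM in Phlpp1/2 KO (−0.27, SE 0.13, adjusted p = 0.453, edgeR). In Phlpp2 KO against WT the log2 fold change was 0.21 for Stmn1 (SE 0.18) and −0.09 for Tead2 (SE 0.12). It was 0.30 for Tubb3 (SE 0.18) and −0.08 for Gdf5 (SE 0.13), so Tead2 and Tubb3 had opposite signs in Phlpp2 KO and Phlpp1/2 KO. Of the 10 genes, 4 had a positive and 6 a negative log2 fold change in Phlpp1/2 KO, and 6 a positive and 4 a negative one in Phlpp2 KO.

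The shares of all tested genes at an unadjusted p under 0.05 against WT, beside which the list counts here are to be read, were 20.4% in Phlpp1 KO, 13.8% in Phlpp2 KO and 11.1% in Phlpp1/2 KO. Among 30 chondrocyte transcription factors and partners of SOX9, 0 were called against WT by edgeR in any knockout, with 7, 5 and 4 at an unadjusted p under 0.05 in Phlpp1 KO, Phlpp2 KO and Phlpp1/2 KO. Limma-voom called 0, and DESeq2 called 1, Arid5b in Phlpp1 KO (beside 990 of all 16565 tested genes), which encodes a coactivator of SOX9. The most abundant were Hif1a, the oxygen-sensitive factor, at 399 CPM in WT, and Trps1 and Zbtb20 at 131 CPM each. Among 40 genes of signals that act upstream of Sox9 and SoxC (BMP, TGF-beta, FGF, hedgehog, Wnt and Notch), edgeR called 0 against WT, with 7, 3 and 7 at an unadjusted p under 0.05 in Phlpp1 KO, Phlpp2 KO and Phlpp1/2 KO. DESeq2 called 1 of the 40 in Phlpp1 KO, the hedgehog receptor gene Ptch1 (beside 990 of all 16565 tested genes), and limma-voom called 0. The log2 fold change was positive for 12, 14 and 9 of these 40 in Phlpp1 KO, Phlpp2 KO and Phlpp1/2 KO, beside 47.7%, 46.1% and 49.6% of all tested genes, with medians of −0.04, −0.03 and −0.09 beside −0.0126, −0.0166 and −0.00142.

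Markers of cycling cells had positive log2 fold changes, as Sox11 did, but none was called by edgeR. The sum of 10 such genes (Mki67, Top2a, Cenpf, Bub1, Ccnb1, Cdk1, Aurkb, Kif11, Rrm2 and Mcm5, none at 0 in any library) was 1151, 1116 and 973 CPM in WT. The sum was 1169 to 1357 CPM in Phlpp1 KO, 1122 to 1671 in Phlpp2 KO and 1223 to 1472 in Phlpp1/2 KO. These sums overlapped WT in Phlpp2 KO and lay above it in the other knockouts. All 10 had a positive log2 fold change in each knockout, with medians of 0.34, 0.56 and 0.55, and edgeR called 0 of them, with 4, 6 and 8 of 10 at an unadjusted p under 0.05, beside 20.4%, 13.8% and 11.1% of all tested genes. DESeq2 called 3, 4 and 2 of the 10, beside 990, 317 and 168 of all 16565 tested genes, and limma-voom called 0 of the 10. Phlpp2 KO 1 had a cycling sum of 1122 CPM, inside the WT range, and a Sox11 level of 30.8 CPM, above all WT libraries. The part of cycling cells in the Sox11 values was not tested.

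Macrophage markers also had mostly positive log2 fold changes. Their sum over 8 genes, none at 0 in any library, was 23.9 to 30.7 CPM in WT, 23.2 to 28.1 in Phlpp1 KO, 22.6 to 36.7 in Phlpp2 KO and 29.5 to 40.6 in Phlpp1/2 KO, so each knockout overlapped WT. Values above 0 were found for 6, 7 and 7 of 8 in Phlpp1 KO, Phlpp2 KO and Phlpp1/2 KO, with medians of 0.22, 0.43 and 0.65. EdgeR and limma-voom called 0 of the 8 in each knockout, and 1, 2 and 4 had an unadjusted p under 0.05, beside the same shares of all tested genes. DESeq2 called 1 in Phlpp1 KO, Cd68 (beside 990 of all 16565 tested genes), and 0 in the others. The 6 endothelial markers, none at 0 in any library, summed to 4.70 to 8.32 CPM in WT, 2.93 to 11.2 in Phlpp1 KO, 5.60 to 10.8 in Phlpp2 KO and 5.96 to 8.99 in Phlpp1/2 KO. Of these, 2, 6 and 4 of 6 had a positive log2 fold change, with medians of −0.22, 0.31 and 0.20, and with 0 called by the 3 tools and 0, 1 and 0 at an unadjusted p under 0.05. The part of either cell type in the Sox11 values was not tested.

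**Figure D5:**
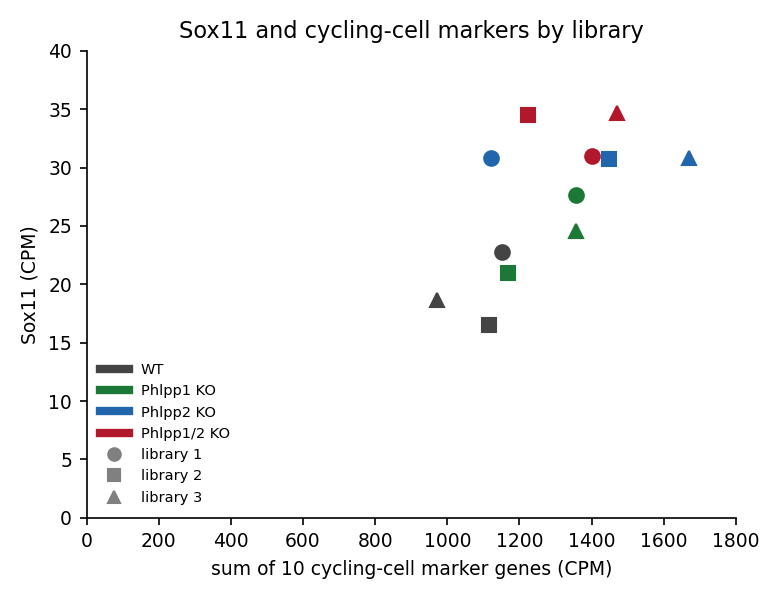
Sox11 (CPM, y axis) against the summed CPM of 10 cycling-cell markers (x axis) in the 12 libraries, coloured by genotype. The lowest value of each is in a WT library, and Phlpp2 KO 1 has a sum inside the WT range (1122 CPM) with Sox11 at 30.8 CPM.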

How the data were processed

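The values used were the authors' deposited counts per gene, not normalized. Per the submitters' processing notes, bcl2fastq 2.17, STAR 2.5.2b and featureCounts of Subread 1.5.2 were used with mm10. Which annotation release was counted, whether strand was used and how multi-mapping reads were treated is not given in the sources used here. Rows without a symbol (174 genes, 0.00419% of counts) were kept.

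Counts were fitted with edgeR 4.0.16 in R 4.3.3: TMM factors, the filterByExpr filter (16565 genes kept), 1 model of the 4 genotypes over all 12 libraries (residual df 8), robust quasi-likelihood tests, and Benjamini-Hochberg adjustment over all tested genes, with calls at an adjusted p under 0.05. The fit was tested on simulated data. DESeq2 1.42.0 and limma 3.58.1 (voom) were alternatives. CPM uses TMM-scaled library sizes, SD is over 3 libraries, and p-values measure only the spread between samples, which may be technical. Other alternatives were RLE factors, library totals alone, no filter, a replicate block, only the 6 compared libraries, each library left out, and both low-Xist libraries left out.

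The members, the gene lists and the tests were chosen with earlier results of these data known. Named genes were all members, up to 3 of the most abundant genes and the called genes of each list, the 5 genes most like Sox9, Sox11, Sox4 and Sox5 (predicted genes, Riken clones and pseudogenes skipped), and neighbouring or overlapping genes. Stmn1, Tead2, Tubb3, Gdf5 and the genes called only by DESeq2 were named after their values were seen. Lists for osteoblast, Schwann cell and melanocyte, and keratinocyte markers summed to 3328 to 5655, 2.30 to 4.65 and 11.2 to 14.1 CPM over the 12 libraries. Promoter windows came from RefSeq, and positions and lengths from GENCODE vM21. Python 3.11.15 with pandas 2.3.3 and matplotlib 3.10.9 drew the figures.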

Additional observations from a re-analysis of the deposited data

How the results depend on the processing

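The number of SOX genes called was the weakest value. For Phlpp2 KO against WT, where Sox11 was the 1 gene called, it was 0 with library totals alone, 0 with limma-voom and 0 with only the 6 compared libraries, and 0 to 1 with each library left out, the call being lost without WT 2, WT 3, Phlpp1 KO 3, Phlpp2 KO 1, 2 or 3, or Phlpp1/2 KO 1 or 2. For Phlpp1/2 KO against WT it was 0 to 1, lost without WT 2, WT 3 or Phlpp1/2 KO 2. For Phlpp1/2 KO against Phlpp1 KO it was 1 (Sox11) with no filter, beside 14 of 32894 genes. The cause was not tested. The log2 fold change of Sox4 in Phlpp1 KO changed sign to −0.000306 with library totals and −0.0327 without both low-Xist libraries, and ranged from −0.0522 (without Phlpp1 KO 1) to 0.0591 with each library left out, −0.0200 without WT 2. That of Sox6 ranged from −0.226 to 0.0172 (without Phlpp1 KO 2). Without both low-Xist libraries, Sox11 was at 0.26, 0.69 and 0.86 in Phlpp1 KO, Phlpp2 KO and Phlpp1/2 KO against WT, on the same side of the threshold as with them.

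Whether the replicate numbers pair the samples is not given. Residuals of same-numbered libraries correlated at −0.138 to 0.276, and 5 of 12 libraries were closest to one with their own number, which does not settle it. With a replicate block the members called stayed at 0, 1 and 1 against WT, with Sox11 at 0.34, 0.68 and 0.80, and all genes called went from 89, 20, 39 and 8 to 245, 84, 29 and 308 (Phlpp1 KO, Phlpp2 KO and Phlpp1/2 KO against WT, and the interaction). DESeq2 called 990, 317, 168 and 650 there, and no filter gave 461, 110, 102 and 183; only the 6 compared libraries gave 1163, 26 and 57 against WT, and this could not be fitted for the interaction. Without both low-Xist libraries the counts were 18, 20, 28 and 4. Between knockouts (Phlpp2 KO against Phlpp1 KO, then Phlpp1/2 KO against Phlpp1 KO and Phlpp2 KO) the counts were 25, 2 and 12, and 176, 21 and 44 with DESeq2, 119, 14 and 32 with no filter, 15, 2 and 10 with the block, 17, 1 and 3 with only the 6 compared libraries, and 11, 2 and 3 without both low-Xist libraries. Limma-voom gave 13 and library totals 18 in Phlpp2 KO against WT. With each library left out, the counts ranged from 16 to 647, 9 to 159 and 18 to 57 for Phlpp1 KO, Phlpp2 KO and Phlpp1/2 KO against WT and from 5 to 1196 for the interaction, and between knockouts from 8 to 207, 2 to 4 and 4 to 132. The highest came without Phlpp1/2 KO 3 (647, 159, 1196 and 132) or Phlpp2 KO 1 (57 and 207).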
